A study of Homo sapiens with 12 samples.

Results

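The nuclear genes for mitochondrial ribosomal proteins were described across 12 RNA-seq libraries of BON-1 cells, a human pancreatic neuroendocrine tumour cell line. Members were the rows whose symbol was MRPL or MRPS followed by a number and, in some, a letter A to C, with at least 1 FPKM (fragments scaled by gene length and by the counted reads of the library) in at least 3 libraries. All 77 genes with such a name, of 54261 genes in the table, met the level requirement, so it removed none. The BON-1 cells were grown alone or with CAFs, the usual abbreviation for cancer-associated fibroblasts, at BON-1 to CAF ratios of 10:2, 10:4 or 10:6, with 3 libraries in each of the 4 groups. BON-1 cells were taken out of the co-culture by flow cytometry and polyadenylated RNA was sequenced. No genetic change or drug is named for any group, all groups share the 1 tumour line, and the source of the CAFs is not given in the sources used here. The labels carry the same sorting text for the cells grown alone, and nothing says whether the 3 libraries of a group came from separate cultures, so p-values measure only the spread between these libraries.

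Mitochondria hold their own ribosomes, which translate the few messenger RNAs of the mitochondrial genome into membrane subunits of the respiratory chain and of the ATP synthase. The ribosomal RNAs of these particles are made inside the organelle, whereas every protein of the small and large subunit is encoded in the nucleus, made in the cytosol and imported. Part of the proteins descend from those of the bacterial ribosome and part are found only in mitochondria. Of the 77 genes, 50 encode proteins of the large subunit, 30 of them with a bacterial counterpart and 20 found only in mitochondria. Another 26 encode proteins of the small subunit, 16 with a bacterial counterpart and 10 without. MRPS30 and MRPS18A are counted with the large subunit, where their proteins sit in spite of their names. MRPS18A and MRPS18B are counted as found only in mitochondria, although they share a bacterial ancestor with MRPS18C. The remaining gene, MRPS36, matched by name only: its RefSeq symbol is KGD4, and its product is a component of the 2-oxoglutarate dehydrogenase complex rather than of the ribosome.

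Upstream sequence is shown for 6 genes. At 10:6, MRPS35, MRPS9 and MRPL51 were the 3 members called as rises both before and after trends on GC content and length were removed. MRPS24, MRPS34 and MRPL17 are 3 of the 14 members called as falls both times, picked with the results known. The sequences are the 250 bases before the RefSeq transcription start (GRCh38.p14), at chr12:27710582-27710831 on the plus strand for MRPS35, chr2:105037819-105038068 on the plus strand for MRPS9, chr12:6493263-6493512 on the minus strand for MRPL51, chr7:43869518-43869767 on the minus strand for MRPS24, chr16:1773135-1773384 on the minus strand for MRPS34 and chr11:6683341-6683590 on the minus strand for MRPL17. Capitals mark matches, on either strand, to any of 6 motifs: NRF1 (GCGCA followed by TGCGC), its shorter core (TGCGCA), the ETS motif that GABPA binds (CCGGAAG), YY1 (AAGATGGC), the CCAAT box and the TATA box (TATAAA).
MRPS35: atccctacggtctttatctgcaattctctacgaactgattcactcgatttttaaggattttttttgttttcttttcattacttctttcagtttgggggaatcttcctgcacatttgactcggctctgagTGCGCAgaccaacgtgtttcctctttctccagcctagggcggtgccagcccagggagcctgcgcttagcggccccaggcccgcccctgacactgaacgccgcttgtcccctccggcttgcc
MRPS9: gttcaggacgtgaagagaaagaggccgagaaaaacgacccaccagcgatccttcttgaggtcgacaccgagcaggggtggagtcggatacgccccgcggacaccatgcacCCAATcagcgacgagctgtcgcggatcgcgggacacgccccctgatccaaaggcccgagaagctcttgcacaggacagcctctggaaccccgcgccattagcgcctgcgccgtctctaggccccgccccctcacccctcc
MRPL51: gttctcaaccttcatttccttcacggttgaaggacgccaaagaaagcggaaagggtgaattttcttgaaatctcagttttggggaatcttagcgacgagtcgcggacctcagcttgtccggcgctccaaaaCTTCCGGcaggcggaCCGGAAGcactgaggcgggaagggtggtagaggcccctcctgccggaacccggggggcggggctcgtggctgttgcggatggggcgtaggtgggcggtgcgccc
MRPS24: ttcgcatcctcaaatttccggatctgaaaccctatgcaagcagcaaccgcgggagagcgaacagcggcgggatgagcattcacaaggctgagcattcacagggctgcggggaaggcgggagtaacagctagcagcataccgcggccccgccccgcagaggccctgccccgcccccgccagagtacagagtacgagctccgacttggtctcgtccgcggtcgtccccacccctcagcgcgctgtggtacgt
MRPS34: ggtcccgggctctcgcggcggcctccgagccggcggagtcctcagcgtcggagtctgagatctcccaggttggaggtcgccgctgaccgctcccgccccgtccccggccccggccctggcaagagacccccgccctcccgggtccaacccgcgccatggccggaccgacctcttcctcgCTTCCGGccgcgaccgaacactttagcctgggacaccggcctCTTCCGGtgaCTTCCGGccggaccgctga
MRPL17: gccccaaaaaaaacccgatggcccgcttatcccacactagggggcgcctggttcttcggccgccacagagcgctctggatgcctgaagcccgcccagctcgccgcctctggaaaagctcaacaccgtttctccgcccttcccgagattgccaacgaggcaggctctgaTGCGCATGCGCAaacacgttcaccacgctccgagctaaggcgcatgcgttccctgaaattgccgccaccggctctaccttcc
MRPS34 carries 3 ETS matches and MRPL51 carries 2. MRPL17 holds the 1 full NRF1 match found among the members' windows, and the 2 core matches there overlap it, one at each end. MRPS35 has 1 core match, MRPS9 has 1 CCAAT match, and no match was found in the MRPS24 stretch. In windows that also hold the 50 bases after the start, MRPS24 and MRPL51 each had a YY1 match. GC content of these stretches ranged from 52.8% for MRPS35 to 73.6% for MRPS34.

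Windows from 250 bases before to 50 bases after the start were in the RefSeq table for 69 of the 77 genes. The YY1 letters were in 29% of these windows and in 10.9% of 64 windows of cytosolic ribosomal protein genes. They were in 5.7% of all 9134 windows of protein-coding genes with at least 1 FPKM in at least 3 libraries. Of the YY1 matches in members, 6 lay before the start and 15 reached past it. The ETS letters were in 40.6% of members' windows, 20.1% of all windows and 34.4% of the cytosolic set. Full NRF1 matches were in 1.4% of members' windows and 2.4% of all windows, the core in 20.3% and 14.0%, CCAAT in 29% and 36.9%, and the TATA box in 4.3% and 5.6%. The core overlaps a full NRF1 match wherever a T precedes or an A follows it. These are matches of letters, not measured binding.

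The 77 genes lie on 21 chromosomes, with 8 each on chromosomes 1 and 2 and 7 each on chromosomes 11 and 17. The closest pair, MRPL46 and MRPS11 on chromosome 15, are separated by 319 bases and transcribed away from each other, with starts 320 bases apart. Of the 9134 protein-coding genes above, 15.9% had a start of another gene on the opposite strand, reading away within 1000 bases. Among the 69 members with a promoter entry, 20 had one (29%). Among these partners are PSMA2 beside MRPL32, TCP1 beside MRPL18 and FAU beside MRPL49. A protein-coding gene overlaps 18 of the 77 members in the annotation. MRPS24 lies inside the readthrough gene URGCP-MRPS24 and MRPS28 inside TPD52-MRPS28, MRPS34 overlaps EME2, MRPL47 overlaps ACTL6A, MRPL37 overlaps SSBP3 and MRPS6 overlaps SLC5A3. Whether reads were counted by strand is not given in the sources used here, so values of these genes are uncertain where reads could belong to the partner.

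All 77 genes were expressed in every library, the lowest value being 5.08 FPKM (MRPS31 in a library of BON-1 cells alone) and the highest 308 FPKM (MRPS34 in another library of that group). The median of the 77 mean levels was 42.6 FPKM. At the top were MRPS34 and MRPS26, small-subunit proteins found only in mitochondria, at 270 and 224 FPKM over the 12 libraries, and between and below them the large-subunit genes MRPL51, MRPL41 and MRPL20 at 234, 213 and 189 FPKM. MRPS31, MRPS25, MRPL19, MRPL42 and MRPL1 were lowest, at 6.54, 7.23, 7.97, 13.1 and 13.9 FPKM. At the top of the order, MRPS26 and MRPL51 exchanged places between groups: in BON-1 cells alone MRPS26 had 247 ± 3.87 and MRPL51 218 ± 5.97 FPKM (SD, n = 3), and at 10:6 MRPS26 had 209 ± 0.309 and MRPL51 245 ± 7.02. Recovered reads behind a member's value ran from 102 to 7478 per library, so counting error is largest for MRPS31.

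**Figure D1:**
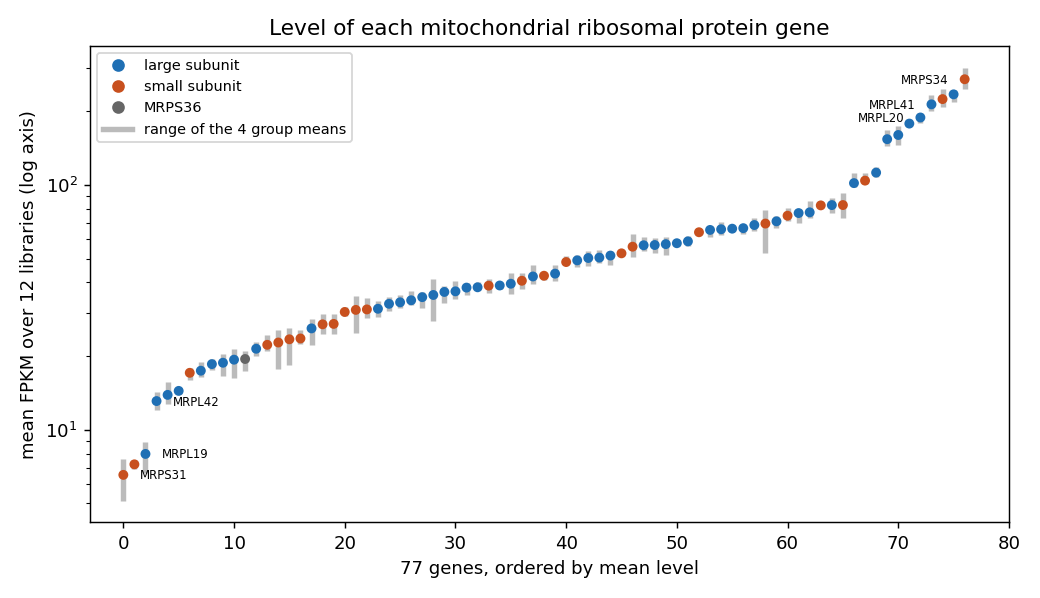
Mean FPKM over 12 libraries (log axis) of the 77 genes in order of level, coloured by subunit; grey bars span the 4 group means. MRPS31 is lowest at 6.54 FPKM and MRPS34 highest at 270 FPKM, with large- and small-subunit genes mixed along the order.

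Summed over the 77 genes, the level was 4850 ± 76.2 FPKM in BON-1 cells alone, 4628 ± 28.9 at 10:2, 4716 ± 122 at 10:4 and 4594 ± 42.2 at 10:6 (SD, n = 3 libraries each). This sum was 0.91% to 0.955% of all FPKM of a library, with the 81 cytosolic ribosomal protein genes at 15.7% to 16.9%. Every library of the 10:2 and 10:6 groups lay below every library of BON-1 cells alone, whereas the 10:4 group overlapped it. The large-subunit sum moved from 3255 ± 57.8 in cells alone to 3091 ± 51.8 at 10:6 and the small-subunit sum from 1577 ± 19.6 to 1482 ± 11.7 FPKM.

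Facts of the libraries bear on all that follows. Depth ran from 11703624 to 21882537 counted reads, and the deepest library was of BON-1 cells alone. Fibroblast markers rose with the CAF share: 10, 14 and 14 of 15 tested markers rose at 10:2, 10:4 and 10:6 and none fell, with COL1A1, a fibrillar collagen chain, at 9.22, 18.0, 37.4 and 54.4 mean FPKM from cells alone to 10:6. Over all 19 fibroblast markers the sum was 2385 to 2465 FPKM in cells alone, 2259 to 2339 at 10:2, 2351 to 2601 at 10:4 and 2538 to 2823 at 10:6. S100A4, which BON-1 cells alone had at 2281 FPKM, made up most of each sum, 4 markers were below 1 FPKM in every library and none was at 0 throughout. Neuroendocrine markers summed to 2747 to 2829 FPKM in cells alone and 3104 to 3189 at 10:6, where 7 of 11 tested rose and 4 fell. The 5 epithelial markers summed to 5004 to 5017 FPKM in cells alone and 4684 to 4911 at 10:6, where 2 rose and 3 fell. Of all genes tested, 29.7% rose and 18.3% fell there. The labelled cell type thus had summed markers in every group, though 1 of 12 neuroendocrine markers was below 1 FPKM in every library. Of the leukocyte and endothelial markers, 5 of 7 stayed below 1 FPKM. The part of fibroblast RNA in the changes below was not tested. In such bulk libraries, fewer cells of a type and less RNA per cell cannot be told apart.

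At 10:6 against BON-1 alone, the genes moved in both directions: 20 rose, 27 fell and 30 were not called at an adjusted p of 0.05 (limma on log2(FPKM + 1) over 13312 genes, Benjamini-Hochberg adjustment). Of all genes tested, 29.7% rose and 18.3% fell, and the members' shares were 26.0% and 35.1%. Among genes with a mean of at least 5 FPKM, a range that holds all 77 members, a fit on those genes alone had 27.3% rising and 30.6% falling, with 20 members rising and 29 falling, so the shares then lay near that background. Changes were small: the member median was -0.07 on the log2 scale, against 0.02 for all genes, and the standard deviation across the 77 changes was 0.22 against 0.30. Libraries of the groups did not overlap for 54 of the 77 genes, and for 58.2% of all genes. Without 1 library at a time, 14 of the 20 rises and 16 of the 27 falls kept their call every time.

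MRPS35, a small-subunit protein found only in mitochondria, showed the largest rise. Its FPKM was 51.8, 54.5 and 51.7 in cells alone, 70.5, 66.4 and 70.7 at 10:2, 73.7, 79.2 and 78.2 at 10:4, and 73.0, 79.6 and 85.2 at 10:6. All 9 co-culture libraries lay above the 3 of cells alone. The rise was 0.58 ± 0.0523 (log2, SE; adjusted p = 5.99e-06) at 10:6. MRPS9, which has a bacterial counterpart and belongs to the head of the small subunit, read 16.8, 17.2 and 18.9 FPKM in cells alone and 25.5, 25.8 and 25.6 at 10:6. Its 10:2 libraries (23.1, 22.7 and 23.2) and 10:4 libraries (26.4, 24.9 and 22.4) were also all above cells alone. The log2 rise of MRPS9 at 10:6 was 0.51 ± 0.0559 (adjusted p = 2.22e-05).

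3 other small-subunit genes rose by a similar amount at 10:6: MRPS31 by 0.49 (adjusted p = 0.000145), MRPS10 by 0.48 (0.000206) and MRPS22 by 0.46 (6.32e-06) on the log2 scale. MRPS22, found only in mitochondria and mutated in inherited respiratory chain deficiency, had 23.8, 24.8 and 26.3 FPKM in cells alone, 28.5, 27.9 and 30.1 at 10:2, 34.9, 35.6 and 34.6 at 10:4 and 34.1, 34.1 and 35.8 at 10:6. Its 4 groups thus fell into 3 levels, with 10:4 and 10:6 overlapping. Among large-subunit genes, MRPL47 rose by 0.42 (8.97e-05), MRPL39 by 0.38 (0.00275), MRPL19 by 0.35 (0.000491), MRPL35 by 0.34 (7.3e-05) and MRPL48 by 0.28 (0.00516). MRPL47 was higher at 10:4 (38.6, 44.3 and 40.8 FPKM) than in cells alone (27.8, 29 and 26.9), and at 10:6 (36.1, 36.7 and 40.5) overlapped 10:4. Rises of MRPS36 (0.25, adjusted p = 0.0122) and MRPL33 (0.21, adjusted p = 0.0224) at 10:6 rested on single libraries. MRPS36 lost its call without replicate 2 of 10:6 (adjusted p = 0.0544). MRPL33 lost it without replicate 1 (0.0898) or 3 (0.0754) of cells alone or replicate 1 (0.0682) or 2 (0.0568) of 10:6.

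MRPS24, the counterpart of a bacterial small-subunit protein near the entry of the mRNA channel, had the largest fall at 10:6. Its FPKM was 92.7, 93.6 and 91.3 in cells alone, 79.7, 86.3 and 83.0 at 10:2, 86.8, 79.3 and 80.7 at 10:4, and 70.7, 72.8 and 76.2 at 10:6. Every co-culture library was below cells alone, and every 10:6 library below the other 9. The fall was -0.33 ± 0.0419 on the log2 scale (adjusted p = 6.43e-05). MRPS34, the most abundant member, went from 296, 308 and 301 FPKM in cells alone to 253, 237 and 246 at 10:6, a change of -0.30 (4.56e-05). Its 10:2 libraries (276, 274 and 256) and 10:4 libraries (268, 257 and 270) lay between, with overlap of each other. MRPS2 changed by -0.31 (0.000508) and MRPS26 by -0.24 (0.000582).

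MRPL12 forms the stalk of the large subunit, where translation factors dock. It read 162, 173 and 169 FPKM in cells alone, 151, 152 and 143 at 10:2, 156, 159 and 146 at 10:4 and 149, 142 and 142 at 10:6. Each co-culture library lay below each of the cells alone, with a log2 change of -0.22 at 10:6 (adjusted p = 0.000774). Other large-subunit falls at 10:6 were MRPL53 (-0.26, 0.00375), MRPL43 (-0.25, 0.00157), MRPL17 (-0.22, 0.000651) and MRPL41 (-0.22, 0.0018). The falls of MRPL54 (-0.25, adjusted p = 0.0331) and MRPL55 (-0.22, 0.0254) were less secure. MRPL54 lost its call without replicate 3 of cells alone (0.127) or replicate 2 (0.135) or 3 (0.0846) of 10:6, and MRPL55 without replicate 1 (0.0822) or 2 (0.0642) of cells alone or replicate 2 (0.0838) or 3 (0.0524) of 10:6. MRPL51, a large-subunit protein found only in mitochondria, went the other way: 213, 225 and 217 FPKM in cells alone, 231, 229 and 230 at 10:2, 248, 245 and 242 at 10:4 and 250, 236 and 247 at 10:6. Its rise was 0.16 at 10:6 (adjusted p = 0.000593), 0.17 at 10:4 (0.000585) and 0.08 at 10:2 (0.0661, not called).

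**Figure D2:**
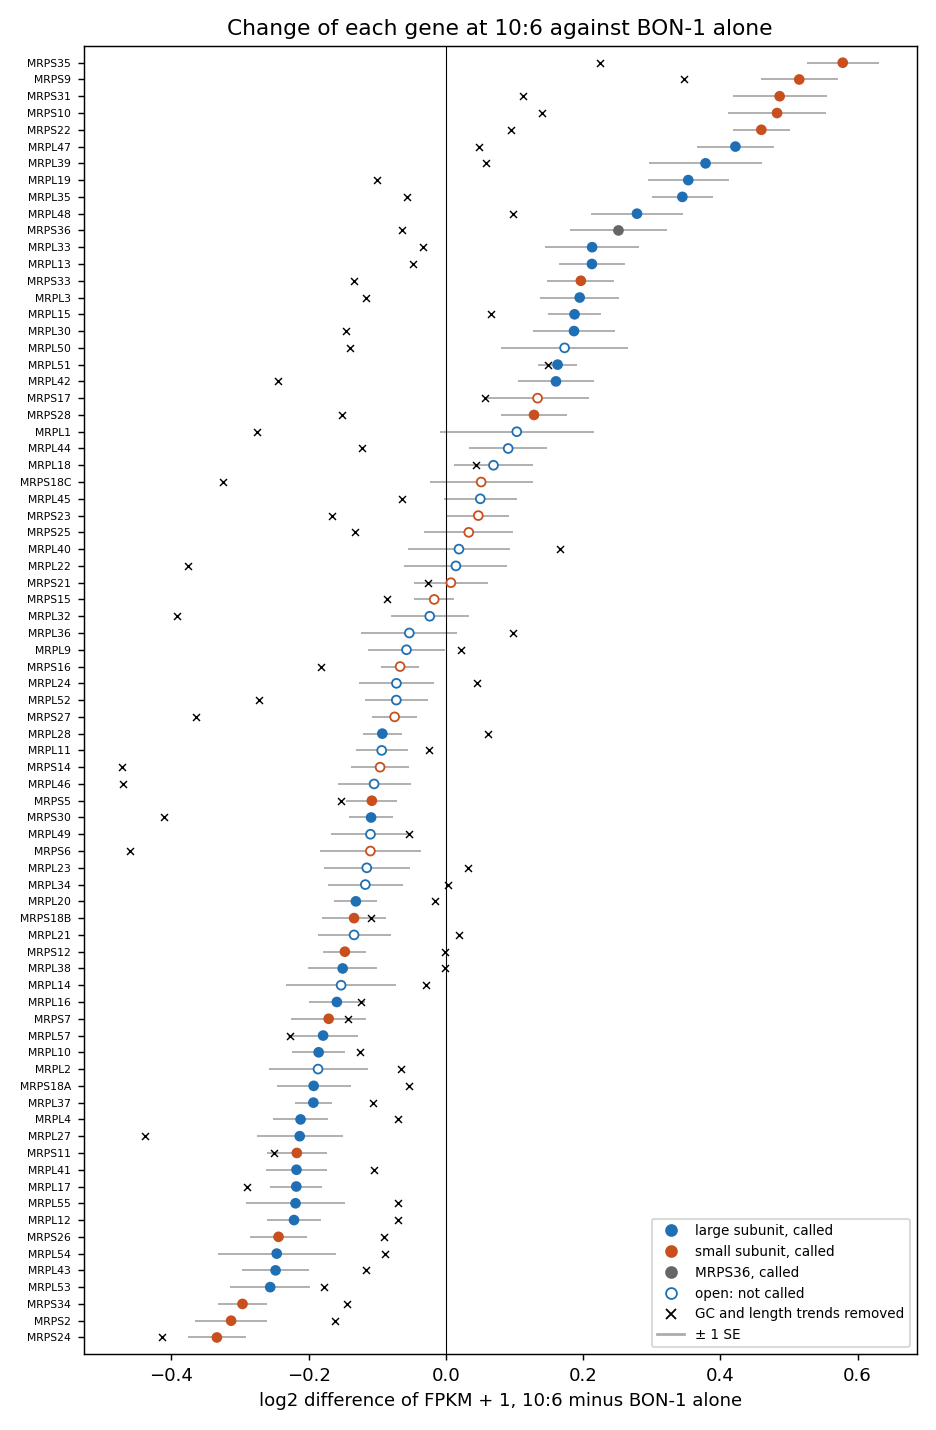
Log2 difference of FPKM + 1 (10:6 minus BON-1 alone) for each of the 77 genes with ± 1 SE, filled where the adjusted p was below 0.05; crosses give the difference after GC and length trends were removed. The 20 filled rises reach 0.58 for MRPS35 and the 27 filled falls reach -0.33 for MRPS24, and most crosses lie to the left of their points in the upper part of the plot.

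Both subunits held genes of both directions. At 10:6, 12 large-subunit genes rose and 18 fell of 50, and 7 small-subunit genes rose and 9 fell of 26. With a bacterial counterpart, 11 rose and 15 fell of 46, and of the 30 found only in mitochondria 8 rose and 12 fell. The 5 largest rises, MRPS35, MRPS9, MRPS31, MRPS10 and MRPS22, were all of small-subunit genes, and so were the 3 largest falls, MRPS24, MRPS2 and MRPS34. A difference between subunits was not tested.

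**Figure D3:**
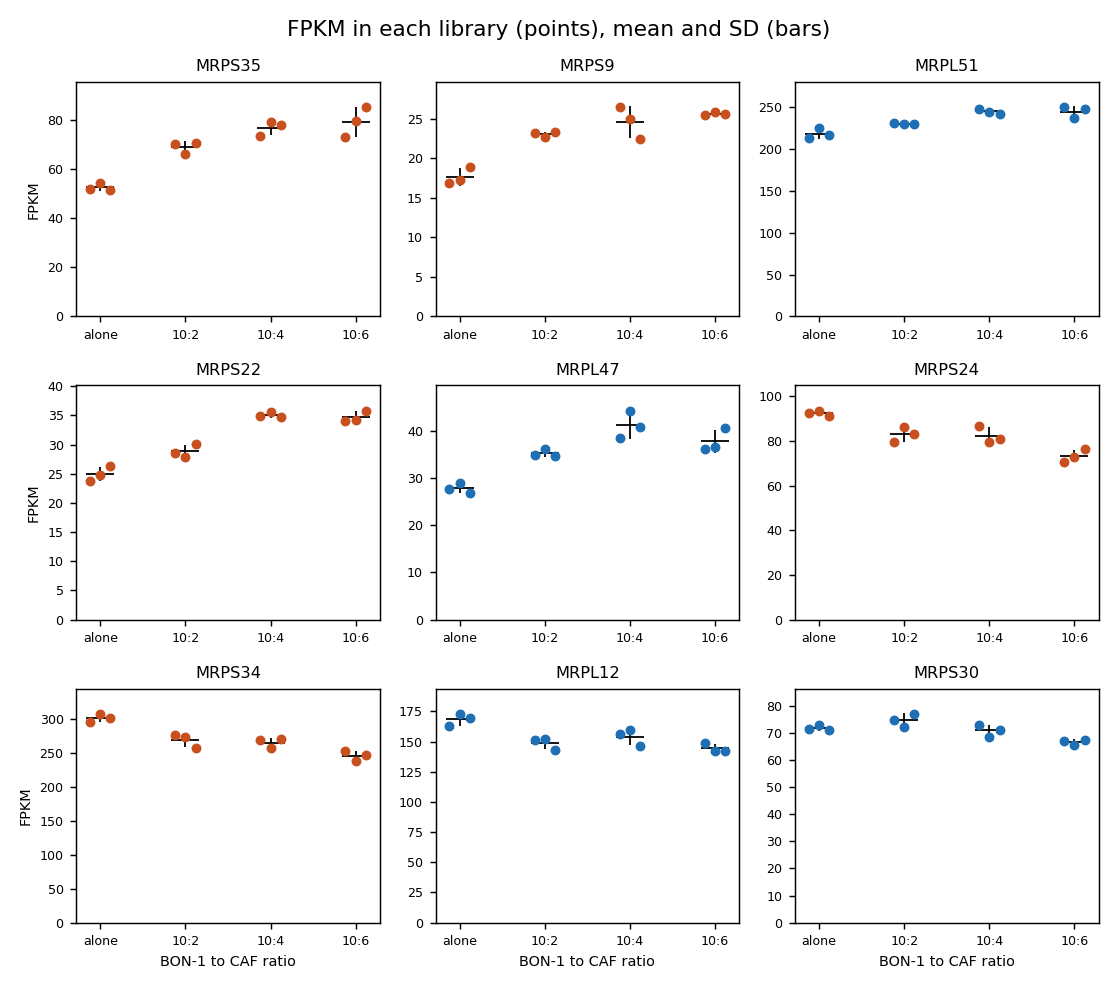
FPKM in each library (points; mean and SD as black bars, n = 3) of 9 genes in BON-1 cells alone and at the 3 ratios, blue for large and orange for small subunit, each axis starting at 0. MRPS35, MRPS9, MRPL51, MRPS22 and MRPL47 have every 10:6 library above cells alone, and MRPS24, MRPS34, MRPL12 and MRPS30 every 10:6 library below.

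At 10:4 against BON-1 alone, 19 genes rose and 20 fell (24.7% and 26.0%, against 27.3% and 18.1% of all genes). The shares of genes with at least 5 FPKM were 24.1% rising and 29.8% falling there, with 19 and 21 of the members. MRPL47 (0.55, adjusted p = 1.41e-05), MRPS35 (0.54, 9.84e-06), MRPS22 (0.47, 5.03e-06), MRPS10 (0.47, 0.000256) and MRPS9 (0.46, 5.82e-05) rose most. MRPS2 (-0.26, 0.00206), MRPL27 (-0.23, 0.0118), MRPS26 (-0.22, 0.00146) and MRPL43 (-0.20, 0.0062) fell most. MRPL27, a large-subunit protein whose bacterial counterpart reaches into the peptidyl transferase centre, lost its call without replicate 2 of cells alone (adjusted p = 0.0534). Over all calls at 10:4, 15 of 19 rises and 12 of 20 falls held without any single library.

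At 10:2 against BON-1 alone, 8 genes rose and 19 fell (10.4% and 24.7%, against 19.9% and 7.46% of all genes, and 19.6% and 13.3% of genes with at least 5 FPKM, where 9 and 22 members were called). MRPS35 rose by 0.39 (adjusted p = 0.00029), MRPS9 by 0.37 (0.000598), MRPL47 by 0.33 (0.00121), MRPS10 by 0.31 (0.00738), MRPS31 by 0.28 (0.0107), MRPL35 by 0.20 (0.00635) and MRPS22 by 0.20 (0.00459). The largest fall was of MRPS6, a small-subunit protein with a bacterial counterpart, at -0.26 (0.0218). MRPS6 read 26.8, 30.3 and 32.3 FPKM in cells alone and 27.2, 24.1 and 22.8 at 10:2, so the groups overlapped. MRPL12 changed by -0.18 (0.00627), MRPL37 by -0.18 (0.000552), MRPL41 by -0.17 (0.0133) and MRPS34 by -0.17 (0.00523). Falls at 10:2 were the least stable: 5 of the 19 and 7 of the 8 rises held without any single library, and without replicate 2 of cells alone 9 genes rose and 6 fell, so the excess of falls over rises was gone. With quantile scaling 10 rose and 11 fell. MRPL49 (-0.19, adjusted p = 0.0287) lost its call without either replicate 1 (0.0908) or 2 (0.114) of cells alone, or without replicate 1 (0.0811), 2 (0.0548) or 3 (0.0594) of 10:2.

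The 3 comparisons share the libraries of BON-1 cells alone, so values of a gene in them are not independent. Compared with each other, the ratios differed for few members. From 10:2 to 10:4, 1 gene rose and none fell (2.47% and 0.413% of all genes): MRPS22, by 0.27 (adjusted p = 0.00898). That call was lost without replicate 2 of 10:2 (0.0501) or replicate 2 of 10:4 (0.0543). Between 10:6 and 10:4, no member was called (0.0977% and 0.233% of all genes). At that step 13 members had an unadjusted limma p below 0.05. The share of all genes with such a p was not taken, so the 13 show nothing particular to the members. By limma-voom on recovered reads 0 members were called as well (0.488% and 1.90% of all genes rose and fell by it). From 10:2 to 10:6, 5 genes rose and 3 fell (4.52% and 2.45% of all genes), or 2 and 4 with median-of-ratios and 4 and 4 with quantile scaling. MRPS22 rose by 0.26 (0.00672) and kept that call without any single library. The other rises were MRPL33 (0.28, 0.0356), MRPL19 (0.22, 0.0489), MRPS35 (0.19, 0.0497) and MRPS33 (0.18, 0.0497), and the falls MRPS24 (-0.18, 0.0305), MRPS30 (-0.16, 0.0159) and MRPS34 (-0.13, 0.0491). Each of these 7 lost its call without at least 1 single library: MRPS30 without replicate 2 (0.0613) or 3 (0.0506) of 10:6, MRPL33 and MRPS24 without each of 5 libraries in turn, and the others without each of 8 to 12. Their highest adjusted p came without replicate 2 of 10:2 for MRPL33 (0.101), MRPS24 (0.121), MRPS35 (0.167) and MRPS34 (0.159), without replicate 2 of 10:6 for MRPS33 (0.152) and without replicate 3 of 10:6 for MRPL19 (0.167). By limma-voom 8 members rose and 27 fell at 10:2, 19 and 26 at 10:4 and 16 and 39 at 10:6, where 22.1% and 13.7%, 28.0% and 24.4%, and 29.8% and 26.3% of all genes did. Its counts were 6 rises (6.27% of all genes; 1.77% fell) from 10:2 to 10:4, and 4 rises and 9 falls from 10:2 to 10:6 (6.03% and 5.82%). Over all 4 groups, 44 members differed by the F test, and 44.4% of all genes did.

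Changes moved with base composition. GC content, taken from the longest annotated transcript, ran from 33.5% for MRPL13 to 71.9% for MRPL41, with a median of 47.6%. Genes that rose at 10:6 had a median of 41.6% and none was above 48.9%, and genes that fell had a median of 54.8% and reached down to 34.5% for MRPS30. Over the 77 genes, which share libraries and depth, the rank correlation of GC content with the log2 change was -0.55 at 10:2, -0.61 at 10:4 and -0.70 at 10:6, and over 12387 genes it was -0.68, -0.72 and -0.72. In 4 classes of GC content at 10:6, 11 of 20 members below 42% rose and 1 fell, 8 of 20 from 42% to 48% rose and 3 fell, 1 of 17 from 48% to 55% rose and 10 fell, and of 20 at 55% or above none rose and 13 fell. The same classes of all genes had 77.7%, 51.6%, 9.0% and 1.8% rising and 0.3%, 3.4%, 21.0% and 42% falling. Below 42% GC the median member change was 0.18, against 0.40 for all genes of that class. Members are also short, with a median length of 1329 bases against 3013 for all genes tested.

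Genome-wide trends of each library on GC content and length were therefore removed and the same limma test repeated over 12387 genes. At 10:6, 3 members then rose and 25 fell (11.5% and 14.0% of all genes, and 13.4% and 19.6% of those with a mean of at least 5 FPKM). At 10:4 the counts were 4 and 22 (10.6% and 12.5% of all genes, 11.4% and 17.1% of those with at least 5 FPKM), and at 10:2 they were 3 and 19 (6.06% and 5.61% of all genes, 7.91% and 7.91% of those with at least 5 FPKM). Most rises were lost. Those of MRPS35 and MRPS9 kept their call at all 3 ratios, at 0.15 (adjusted p = 0.0306), 0.17 (0.0101) and 0.23 (0.0017) for MRPS35 and 0.28 (0.00509), 0.32 (0.000934) and 0.35 (0.000525) for MRPS9. MRPL51 was called at all 3 only after this step, at 0.09 (0.0291), 0.17 (0.000302) and 0.15 (0.00083). MRPS22 dropped to 0.09 (0.0851) at 10:6, MRPL47 to 0.05 (0.57), MRPS10 to 0.14 (0.101) and MRPS31 to 0.11 (0.306). Of the 20 rises at 10:6, 10 changed sign, and MRPL42, the gene of a large-subunit protein found only in mitochondria, was then called as a fall (0.16, adjusted p = 0.0302 before; -0.24, 0.00147 after). At 10:4, 9 of the 19 rises changed sign, and 3 were then called as falls: MRPL42 (-0.22, 0.00327), MRPS36 (-0.21, 0.00737) and MRPL13 (-0.165, 0.0163). Of the 8 rises at 10:2, 2 changed sign and neither was called as a fall. Among all genes below 42% GC, 77.7% rose at 10:6 before removal and 17.1% after. Sign changes over all genes were not counted, so those of the members are not shown to be particular to them.

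Calls kept, lost or gained on removal were not counted over all genes, so such counts have no background here. Members' falls with a call both before and after numbered 14 at 10:6, 8 at 10:4 and 7 at 10:2. MRPS24, MRPS11 and MRPL37 were among them at all 3 ratios, MRPS24 with -0.18 (0.00734), -0.22 (0.00111) and -0.41 (1.53e-05). MRPL37, a large-subunit protein found only in mitochondria, read 111, 112 and 112 FPKM in cells alone and 97.9, 96.1 and 99.4 at 10:6. Its change of -0.19 at 10:6 (0.000123) became -0.11 (0.0107) after removal. MRPL17 went from -0.22 to -0.29 (0.000184), MRPS34 from -0.30 to -0.14 (0.00216), and MRPL12 from -0.22 to -0.07 (0.142), all at 10:6. The falls of MRPS34 at 10:2 and 10:4 were lost, at -0.05 (0.284) and -0.06 (0.135). At 10:6, 10 members became called falls that were not called before, among them MRPS14 (-0.10 before; -0.47, 1.43e-05 after), MRPS6 (-0.11; -0.46, 0.000575) and MRPL46 (-0.10; -0.47, 0.0001). MRPS14, MRPS6 and MRPL46 have a GC content of 39.9% to 41.0%, in the range where genes as a whole rose. Removal did not level the relation among members: the rank correlation of GC content with change became 0.45, 0.51 and 0.27 at the 3 ratios, with the sign turned. Part of the falls after removal thus sits with low GC content of members, and the cause was not tested. Between ratios, 1 fall was called from 10:2 to 10:4 after removal (MRPS30, -0.28, 0.0107), 1 from 10:4 to 10:6 (MRPS24, -0.19, 0.0411) and 3 from 10:2 to 10:6 (MRPS30, -0.24, 0.00992; MRPS24, -0.23, 0.00764; MRPL17, -0.18, 0.0238), where 0.573% and 0.258%, 0.266% and 0.533%, and 1.70% and 1.96% of all genes rose and fell.

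**Figure D4:**
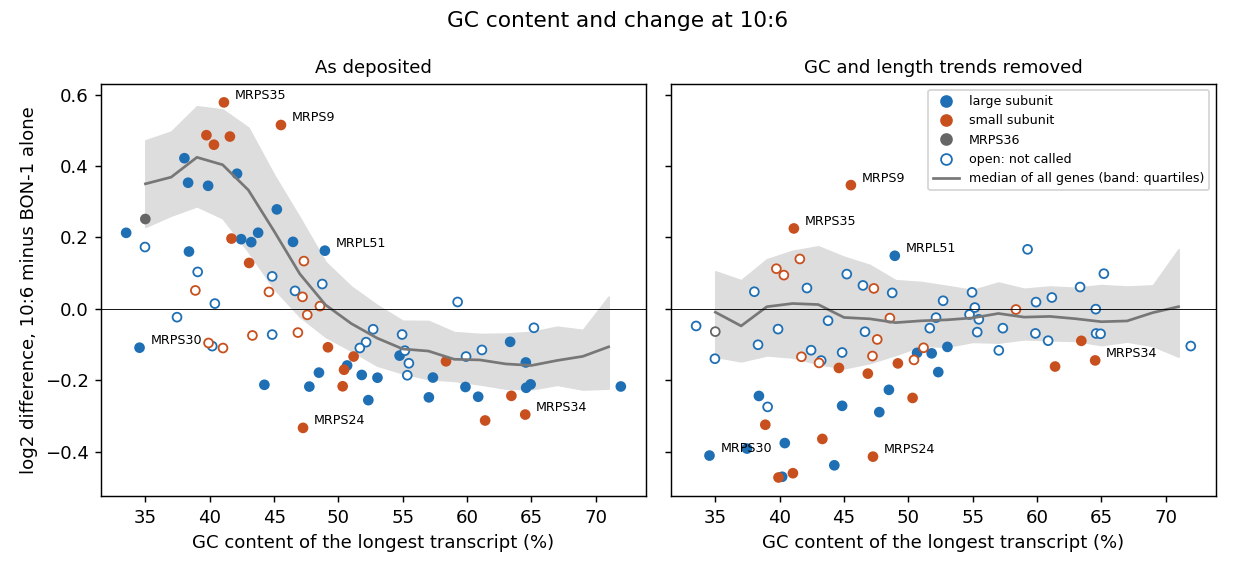
Log2 difference (10:6 minus BON-1 alone) against GC content of the longest transcript for the 77 genes, before and after removal of GC and length trends, with the median (line) and quartiles (band) of all genes. Before removal members below 42% GC lie mostly under the line; after it MRPS9, MRPS35 and MRPL51 are the 3 called rises and the deepest falls lie below 50% GC.

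MRPS30 belongs to the large subunit and has a GC content of 34.5%. It read 71.5, 73.1 and 71.1 FPKM in cells alone, 74.9, 72.3 and 77.1 at 10:2, 72.8, 68.6 and 71.2 at 10:4 and 67.0, 65.4 and 67.3 at 10:6. The 10:6 libraries were the 3 lowest of the 12. Its change at 10:6 was -0.11 (adjusted p = 0.0152), lost without replicate 2 of cells alone (0.0594) or of 10:6 (0.0579), and -0.41 (3.51e-05) after removal of the trends. MRPL46 and MRPS11, the head-to-head pair, both had lower means in co-culture. MRPS11, of the small-subunit platform, read 24.9, 24.6 and 23.8 FPKM in cells alone and 21.2, 21.8 and 19.7 at 10:6, a change of -0.22 (0.00177), and MRPL46 read 53.5, 54.3 and 55.3 in cells alone and 53.0, 51.3 and 47.3 at 10:6, a change of -0.10 (0.126) that did not pass.

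The 3 paralogs that descend from 1 bacterial small-subunit protein differ in where their products sit: MRPS18C takes the place of the bacterial protein, MRPS18B another site on the small subunit and MRPS18A one on the large subunit. MRPS18A had 83.3, 88.7 and 92.7 FPKM in cells alone and 80.3, 77.4 and 73.4 at 10:6, without overlap. The change was -0.19 (adjusted p = 0.0114), lost without replicate 3 of cells alone (0.0513) or of 10:6 (0.0511). MRPS18B had 26.3, 24.8 and 25.4 FPKM and then 23.6, 23.9 and 22.0, a change of -0.13 (0.0325), lost without replicate 1 (0.112) or 3 (0.067) of cells alone or replicate 3 of 10:6 (0.131). MRPS18C had 24.6, 27.6 and 26.8 FPKM and then 25.7, 26.3 and 30.1, with overlap, a change of 0.05 (0.604) that turned to -0.32 (0.00281) once the trends were removed.

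Other genes of mitochondrial translation also went both ways at 10:6. Of 6 mitochondrial ribosome proteins with other names, 2 rose and 2 fell, and 1 and 1 after removal of the trends. PTCD3, an RNA-binding protein of the small subunit, rose from 6.54 ± 0.451 to 10.1 ± 0.418 FPKM (SD, n = 3), by 0.56 on the log2 scale, and by 0.20 (adjusted p = 0.0218) after removal. DAP3, a GTP-binding protein of the small subunit, rose from 56.9 ± 1.23 to 62.6 ± 0.536 FPKM (0.13, adjusted p = 0.0015), and was at -0.0005 after removal of the trends. Among 26 assembly and rRNA modification factors 4 rose and 12 fell, and after removal none rose and 8 fell. RCC1L, an assembly factor, changed by -0.31 and DHX30, an RNA helicase, by -0.25, and both stayed called after removal (-0.17 and -0.15).

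Of 16 translation factors and regulators of mitochondrial mRNA, 8 rose and 3 fell, with a median log2 change of 0.23. After removal 4 rose and 3 fell, with a median of -0.04. GFM1, an elongation factor, went from 14.0 ± 0.837 to 26.6 ± 1.15 FPKM (0.88), LRPPRC, which stabilises mitochondrial mRNA, from 11.8 ± 0.582 to 20.1 ± 1.03 (0.72) and MTIF2, an initiation factor, from 4.36 ± 0.0646 to 8.28 ± 0.614 (0.79). These stayed called after removal, at 0.50, 0.34 and 0.41. Of 5 genes of mitochondrial transcription 3 rose and 1 fell, and 1 and 1 after removal. TFB2M (0.58) and TFAM (0.58), which act at mitochondrial promoters, rose, and POLRMT, the RNA polymerase, fell by 0.27 on the log2 scale. After removal TFB2M was at 0.25 (adjusted p = 0.00322), TFAM at 0.14 (0.121, not called) and POLRMT at -0.18 (0.00268). Of 8 nuclear regulators, 3 rose and 3 fell, and 1 and 2 after removal. Their log2 changes at 10:6 ran from -0.20 to 0.32. YY1, whose motif was searched above, rose from 17.2 ± 0.592 to 21.0 ± 1.05 FPKM (0.27, and 0.21 after removal). A link between its level and the motif matches was not tested.

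Of the 13 protein-coding genes of the mitochondrial genome, whose messages these ribosomes translate, none rose and 7 fell at 10:6. The median log2 change was -0.08, with COX2, a cytochrome c oxidase subunit, at 9135 ± 105 and then 7957 ± 71.4 FPKM. No GC value was matched for these 13, so the check on GC content is void for them. At 10:2 none of the 13 was called and at 10:4 2 fell. The 81 cytosolic ribosomal protein genes had 8 rises and 13 falls at 10:2, 14 and 16 at 10:4 and 18 and 21 at 10:6, with a standard deviation of the changes at 10:6 of 0.16 against 0.22 for the mitochondrial set. After removal of the trends they had 8 rises and 32 falls at 10:6 (9.9% and 39.5%). Of all genes 11.5% rose and 14.0% fell there, and of those with a mean of at least 5 FPKM 13.4% and 19.6%. At 10:6 after removal, falls thus outnumbered rises in both ribosomal protein sets and among all genes.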

How the data were processed

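FPKM values of 54261 genes in 12 libraries were deposited by the authors as 1 table. HISAT2, featureCounts and the hg38 build are named, per the submitters' processing notes, without versions or settings. Values were whole multiples of a read for 99.9738% of 267349 nonzero values (tolerance 1e-06 reads), which gave read counts, gene lengths and depths of 11703624 to 21882537. Genes with at least 1 FPKM in at least 3 libraries (13312) were tested with limma 3.58.1 (R 4.3.3) on log2(FPKM + 1), 1 mean per group over all 12 libraries, with a variance trend and Benjamini-Hochberg adjustment over all genes tested, at a threshold of 0.05. Fold changes on this scale understate those of low genes. Trends were natural splines with 5 degrees of freedom on GC content and log2 length, fitted per library to 12387 genes (93.05%) with both values. GC content came from the longest GENCODE transcript, and positions and promoters from RefSeq GRCh38.p14. limma-voom on recovered reads with TMM scaling was an alternative, and the main limma fit was tested on simulated data. Genes named were the largest non-overlapping changes of each comparison, the extremes of level, the MRPS18 paralogs, MRPL12, MRPS30 and MRPS36. Genes whose calls turned or were lost were also named, and up to 3 genes with the smallest p-values of each other list. Members, lists, motifs, GC classes and the promoters shown were chosen with earlier results of these data known.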

Additional observations from a re-analysis of the deposited data

How the results depend on the processing

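Counts of called members that differed by over 1.5 times from the report's under any of 24 alternatives are given here. At 10:2 against BON-1 alone (27 called), no filter gave 17 and a minimum log2 change of 0.32 gave 3. At 10:4 (39) that minimum gave 8. At 10:6 (47), removal of GC and length trends gave 28 (27 with the replicate block) and the minimum change 10. For 10:4 against 10:2 (1), a mean of at least 5 FPKM gave 7, a fit on the 2 groups alone 0, limma-voom 6 and the minimum change 0. For 10:6 against 10:4 (0), removal of the trends gave 1 (0 with the replicate block). For 10:6 against 10:2 (8), no filter gave 2, a mean of at least 5 FPKM 13, no variance trend 2, the 2 groups alone 1, the replicate block 3, removal of the trends 3 (2 with the block), limma-voom 13 and the minimum change 0. For any group (44), removal gave 29 (22 with the block). Leaving out 1 library at a time gave 15 to 28 at 10:2, 30 to 40 at 10:4, 34 to 49 at 10:6, 0 to 2 for 10:4 against 10:2, 0 for 10:6 against 10:4, 1 to 11 for 10:6 against 10:2 and 29 to 47 for any group. Some settings also changed the number of genes or libraries in the fit, and why the counts differed was not tested. Beside the main fit, the share of all genes called was taken for limma-voom and for removal of the trends without the block. For a mean of at least 5 FPKM it was taken against BON-1 alone only, and for any group in the main fit only. Counts of members under the other settings, leaving out 1 library included, have no such background. Scaling alone moved the split of rises and falls at 10:2 to 10 and 11 (quantile) and for 10:6 against 10:2 to 2 and 4 (median of ratios) and 4 and 4 (quantile), and at 10:6 gave 18 and 34 (median of ratios). limma-voom, which changes the input, weights and scaling together, gave 16 and 39 at 10:6 and 4 and 9 for 10:6 against 10:2.

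Of 61 values of named genes under 24 alternatives (1464 in all), 1210 kept direction and call, 239 lost the call and 15 turned. With the trends removed, with or without the replicate block, MRPS22 was at -0.042 at 10:2, MRPS31 at -0.041 at 10:4 and, at 10:6, MRPL19 at -0.10, MRPL35 at -0.057, MRPS36 at -0.064, MRPL33 at -0.033 and MRPS18C at -0.32. MRPS18C ran from -0.017 (without replicate 3 of 10:6) to 0.094 with 1 library left out. Same replicate numbers did not pair libraries. This was read from each library's deviations of log2(FPKM + 1) from its group mean, correlated between groups. The 18 pairs with the same number had correlations of -0.043 to 0.046, and 2 of 12 libraries correlated best with their own number. With the replicate block 24, 38 and 44 members were called at 10:2, 10:4 and 10:6, 1 for 10:4 against 10:2, 0 for 10:6 against 10:4 and 39 for any group. The share of all genes called with the block was not taken. Depth limits MRPS31 most, with 102 reads in its lowest library.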
